A study of Mus musculus with 12 samples.

Results

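RNA bound by YTHDF2 was compared directly with RNA bound by YTHDF3 in cultured mouse hippocampal neurons, using RNA immunoprecipitation followed by sequencing (RIP-seq). The members of the comparison were the 3 YTHDF2 RIP libraries and the 3 YTHDF3 RIP libraries, chosen by their labels, which made 6 of the 12 libraries sequenced. The neurons came from neonatal C57BL/6 mice, an inbred strain with no genetic change introduced here, and were kept in culture for 14 days. Ara-C was added to the cultures early on to limit the growth of glial cells, and no further treatment is described for the RIPs. For each replicate, the study describes pooling the lysate of 3 culture wells and dividing it among antibodies against endogenous YTHDF1, YTHDF2 and YTHDF3. RNA from a fraction of the lysate served as input. Each protein was recovered with a different antibody and no control antibody was analysed here, so a difference between the proteins and a difference between the antibodies cannot be told apart. Because these are bulk samples, fewer cells of a type and less RNA per cell cannot be told apart either. The question addressed was which RNAs 1 of the proteins recovers more than the other does.

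YTHDF2 and YTHDF3 belong to a family of cytoplasmic proteins whose YTH domain binds N6-methyladenosine (m6A), a methylated adenosine found in mRNA, mostly near stop codons and in 3′UTRs. YTHDF2 is best known for recruiting deadenylases that shorten the poly(A) tail and start mRNA decay, and YTHDF3 has been linked to both translation and decay. In neurons, m6A readers are studied for their part in localized RNA, translation and plasticity. None of this background was measured here.

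Sequencing depth differed between the groups. The total count was 7019245, 6020072 and 9259893 in the YTHDF2 RIPs and 22400602, 21395271 and 22305065 in the YTHDF3 RIPs, so low-level RNAs were measured with more counting error in YTHDF2. YTHDF2 replicate 3 stood apart in the number of genes with at least 1 count, 31334 against 24871 to 27802 in the other 5 libraries. YTHDF3 replicate 1 stood apart in markers of other cell types. The oligodendrocyte lineage markers summed to 63.9 CPM in YTHDF3 replicate 1 and 64.2 CPM in input replicate 1, against 440 to 601 CPM in the 3 YTHDF2 RIPs and the other YTHDF3 RIPs, and the vascular and mesenchymal markers to 19.6 and 15.3 CPM against 97.1 to 220 CPM. No YTHDF2 RIP was this low, although the lysates are described as shared, so replicate numbers cannot be taken to match lysates. Without YTHDF3 replicate 1, 328 genes were called higher in YTHDF2 and 79 in YTHDF3, beside 676 and 198 with all libraries. The part of cell mixture, and of differences between cultures, in the results was not tested. Spearman correlations of log2 CPM (counts scaled to a common library size) were between 0.950 and 0.983 within the groups and between 0.913 and 0.959 across them, given as a description over the 17126 genes tested. A count per gene was divided by a TMM-scaled library size, which gives the CPM quoted below, and genes were called where edgeR's quasi-likelihood test gave an adjusted p (Benjamini-Hochberg) no higher than 0.05 and the groups differed 2-fold or more.

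The sequences behind the largest single share of the difference are shown first. A set of 6 short genes, annotated as miRNAs by GENCODE and without a biotype in the deposited annotation, shared at least 1 stretch of 18 bases with Gm23935. Gm23935 (chr16:11144125-11144181, plus strand), Gm24270 (chr9:56223715-56223771, minus strand) and Gm24245 (chr4:139338304-139338360, plus strand) have identical sequences in GRCm38, and Gm24187 (chr13:9834469-9834525, minus strand), Gm25911 (chr1:167340369-167340424, minus strand) and Gm23388 (chr8:85112012-85112068, minus strand) are close relatives. They are printed below as DNA, with the 13-base stretch common to all 6 in capitals.
Gm23935, Gm24270 and Gm24245: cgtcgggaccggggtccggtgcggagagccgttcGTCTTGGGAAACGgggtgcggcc
Gm24187: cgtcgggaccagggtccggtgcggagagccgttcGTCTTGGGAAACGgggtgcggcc
Gm25911: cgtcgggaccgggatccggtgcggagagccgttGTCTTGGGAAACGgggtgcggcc
Gm23388: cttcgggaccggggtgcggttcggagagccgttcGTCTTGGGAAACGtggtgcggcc

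These 6 genes held 16.8%, 21.3% and 21.5% of all counts in the 3 YTHDF2 RIPs and 0.314%, 0.155% and 0.199% in the 3 YTHDF3 RIPs, beside 7.86%, 8.07% and 6.76% in the inputs. The groups did not overlap, and the inputs lay between them. Gm23935 alone took 8.83%, 11.2% and 11.5% of counts in YTHDF2, against 0.164%, 0.0791% and 0.105% in YTHDF3. The log2 difference between YTHDF2 and YTHDF3 ranged over the 6 genes from 6.68 for Gm24270 to 7.03 for Gm24245, with adjusted p-values between 0.00113 and 0.00353. Against input, the log2 values were 1.17 to 1.62 in YTHDF2, where Gm23388 passed the test (adjusted p = 0.0429) and the other 5 did not, and -5.18 to -5.86 in YTHDF3, where all 6 were depleted. Gm23388 had 0, 2 and 1 counts in the YTHDF3 libraries, so its own fold is imprecise. Reads with several alignments were counted at each of them, so the 6 genes are not independent measurements and their share counts alignments rather than molecules. The 5.8S ribosomal RNA gene n-R5-8s1 had the same order of groups, with 216, 279 and 441 CPM in YTHDF2, 5.99, 2.04 and 2.58 CPM in YTHDF3 and 161, 157 and 108 CPM in the inputs, and whether the reads at the 6 genes come from ribosomal RNA precursors was not tested.

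The make-up of the libraries differed accordingly. Protein-coding genes held 75.1%, 71.2% and 69.7% of counts in YTHDF2 and 94.3%, 95.1% and 94.8% in YTHDF3, a mean difference of -22.8 percentage points (exact two-sided permutation test, p = 0.1, which is the smallest value that 3 against 3 libraries can give, adjusted p = 0.15 over 9 biotype groups). Once the 6 short genes were set aside, protein-coding genes held 90.3%, 90.5% and 88.8% of the remaining counts in YTHDF2 and 94.6%, 95.3% and 95.0% in YTHDF3, so most of the gap lay in those genes. Long non-coding RNA (lncRNA) genes held 3.66% ± 0.44 (SD, n = 3) of counts in YTHDF2 and 2.06% ± 0.26 (SD, n = 3) in YTHDF3 (exact permutation test, p = 0.1, adjusted p = 0.15), and the replicates did not overlap. That difference was carried by 1 gene, Malat1, at 2.26%, 1.62% and 2.66% of counts in YTHDF2 and 0.437%, 0.332% and 0.333% in YTHDF3. With Malat1 subtracted, lncRNA genes held 1.64%, 1.53% and 1.27% of all counts in YTHDF2 and 1.90%, 1.69% and 1.49% in YTHDF3. These values overlapped, with a lower mean in YTHDF2. The totals still included the 6 short genes, which lowers every other share in YTHDF2. The direction with both Malat1 and the 6 short genes set aside was not computed. Pseudogenes held 2.11% ± 0.23 (SD, n = 3) and 1.98% ± 0.14 (SD, n = 3), a difference smaller than the spread between replicates (exact permutation test, p = 0.4). These are shares of all counts, the 6 short genes included, and shares of the remaining counts were not computed for pseudogenes. Gene by gene, 128 processed pseudogenes were called higher in YTHDF2 and 5 higher in YTHDF3.

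**Figure D1:**
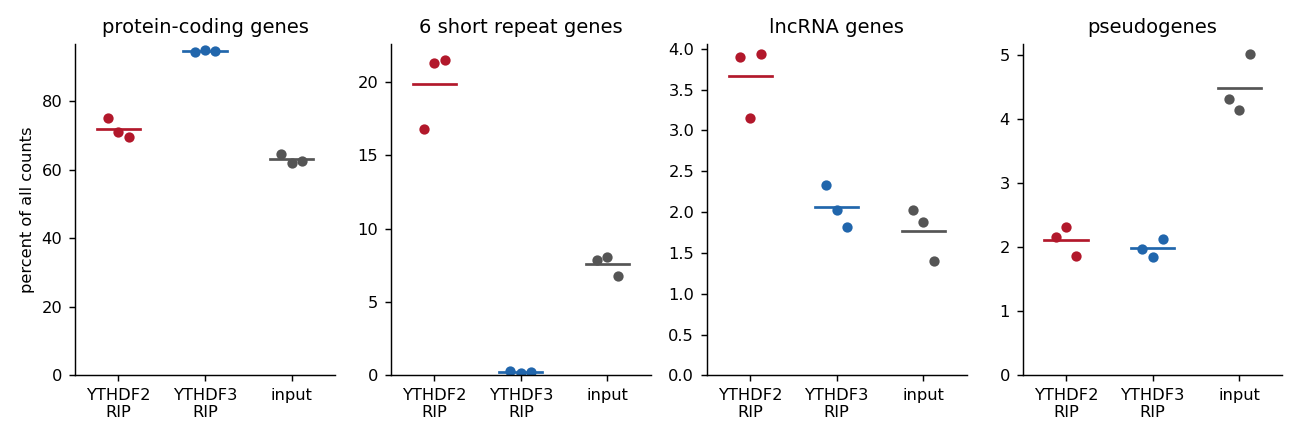
Percent of all counts (vertical axis, starting at 0) held by protein-coding genes, the 6 short genes related to Gm23935, lncRNA genes and pseudogenes in each library; points are libraries and lines are means of 3. The YTHDF2 libraries lie at 16.8% to 21.5% for the 6 short genes and the YTHDF3 libraries at 0.155% to 0.314%.

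Far more genes were higher in YTHDF2 than in YTHDF3. Of the 17126 genes tested, 676 (3.95%) were higher in YTHDF2 and 198 (1.16%) were higher in YTHDF3. Among the 13438 protein-coding genes the numbers were 356 and 179, and among the 3274 non-coding genes they were 242 and 18. A further 414 genes had no biotype in the deposited annotation, and of these 78 were higher in YTHDF2 and 1, Lin54 (named after its value was seen), was higher in YTHDF3. Processed pseudogenes made up 128 of the 242 non-coding genes, genes awaiting experimental confirmation (TEC) made up 45, and lncRNAs made up 34. All 179 protein-coding genes higher in YTHDF3 and all 356 higher in YTHDF2 had replicates that did not overlap. The calls were made on the same 6 libraries and nearly require this, so it adds no support to them. Of all genes tested, 14.0% and 21.8% had non-overlapping replicates in those directions. The median log2 difference over all genes was 0.07.

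How the libraries were scaled moved the balance of the calls. With library size alone, the median over all genes fell to -0.19 and 482 genes were higher in YTHDF2 against 718 in YTHDF3, so that 40.2% of the calls were higher in YTHDF2 in place of 77.3%. When the 6 short genes were left out before library sizes were taken, the median was 0.13 and 789 genes were higher in YTHDF2 against 170 in YTHDF3, or 82.3%. No gene called in the reported fit was called with the other sign under either scaling. The counts were also sensitive to single libraries: without YTHDF3 replicate 2, 70 protein-coding genes were higher in YTHDF2 and 63 were higher in YTHDF3.

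**Figure D2:**
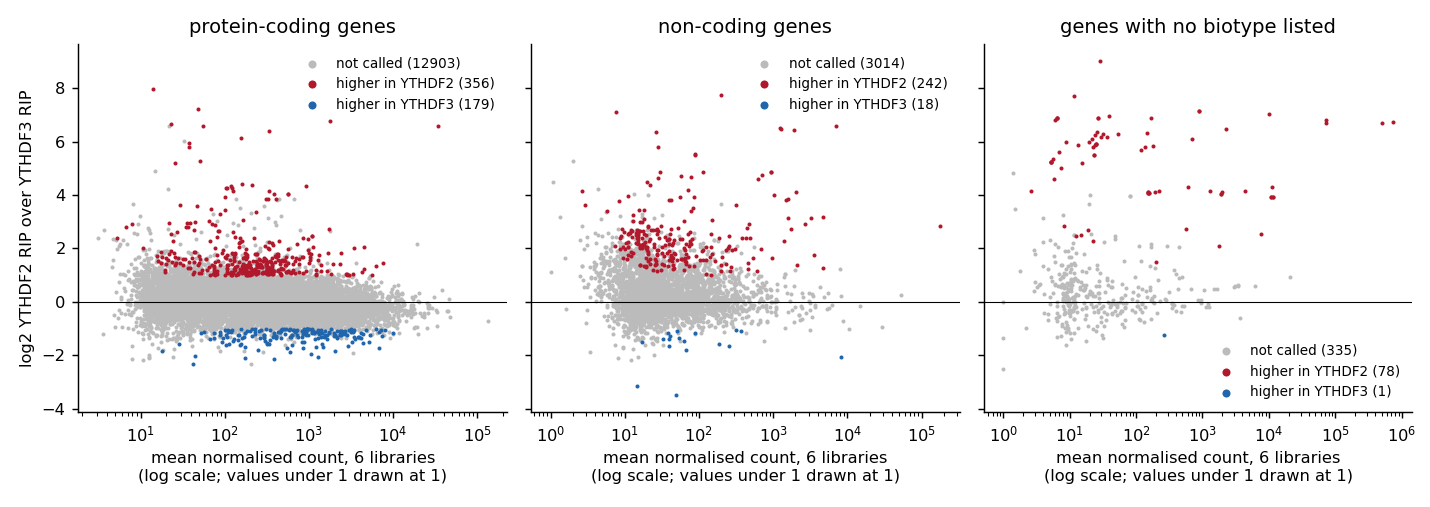
Log2 difference between YTHDF2 RIP and YTHDF3 RIP (vertical axis) against the mean normalised count over the 6 libraries (horizontal axis, log scale), 1 point per gene, for protein-coding genes, non-coding genes and genes with no biotype listed. Calls in YTHDF2 reach much larger differences than calls in YTHDF3, and the non-coding panel holds 242 genes higher in YTHDF2 and 18 higher in YTHDF3.

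A higher level in 1 RIP than in the other did not by itself mean enrichment over input. Both RIPs were set against the same 3 input libraries, with calls at a log2 value of at least 0.322 in size, so the values below share their controls. Of all genes tested, 15.7% were enriched and 19.0% were depleted in YTHDF2 against input, and 16.4% were enriched and 23.0% were depleted in YTHDF3. Of the 356 protein-coding genes higher in YTHDF2, 102 were enriched over input in YTHDF2, 103 were depleted in both RIPs, and 133 were depleted in YTHDF3 and not called in YTHDF2. Of the 179 protein-coding genes higher in YTHDF3, 57 were enriched over input in YTHDF3, none was enriched in YTHDF2 (0 at these thresholds in edgeR), and 103 were depleted in YTHDF2. Of the 242 non-coding genes higher in YTHDF2, 50 were enriched in YTHDF2 and 101 were depleted in both.

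Replication-dependent histone mRNAs formed the protein-coding group with the largest difference. These mRNAs encode the histones made during S phase and end in a stem-loop rather than a poly(A) tail. Of the 62 measured, 35 (56.5%, beside 3.95% of all genes) rose in YTHDF2 relative to YTHDF3 and none fell. The median log2 difference was 3.05 against 0.07 for all genes tested. For 61 of the 62, every YTHDF2 library was above every YTHDF3 library, beside 21.8% of all genes tested. The largest difference among them was that of H3c2, which encodes an H3 histone, with 14.2, 31.8 and 16.8 CPM in YTHDF2 and 0.389, 0.814 and 1.65 CPM in YTHDF3 (log2 difference 4.43 ± 1.03 SE, adjusted p = 0.0268). Every YTHDF2 library was above every YTHDF3 library for H3c2, while the inputs spread from 8.14 to 69.0 CPM. H3c7 had 18.3, 39.6 and 24.4 CPM in YTHDF2 against 0.583, 0.962 and 2.35 CPM in YTHDF3 (log2 difference 4.38 ± 0.94 SE, adjusted p = 0.0204). H3c8, H3c1, H3c3 and H3c10 followed with log2 differences of 4.34, 4.27, 4.26 and 4.25.

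Against input, the median log2 value of the 62 histone genes was 0.18 in YTHDF2 and -3.05 in YTHDF3. None was called enriched in either RIP, 8 were depleted in YTHDF2 and 45 were depleted in YTHDF3. The summed level of the 62 genes was 1483 to 3122 CPM in YTHDF2, 173 to 331 CPM in YTHDF3 and 712 to 2986 CPM in the inputs, so the YTHDF2 libraries lay close to the range of the inputs. Near-identical coding sequences are shared among these genes, and reads counted at several of them make their values dependent on each other. The count of 35 was fragile to the loss of a library, falling to 14 without YTHDF2 replicate 1, 11 without YTHDF2 replicate 3, 2 without YTHDF3 replicate 1 or YTHDF3 replicate 3, 1 without YTHDF2 replicate 2 and 0 without YTHDF3 replicate 2, while the median stayed between 2.75 and 3.50 in those fits. In DESeq2, 58 of the 62 were higher in YTHDF2.

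The stem-loop of these mRNAs could be read from the GENCODE transcripts. A hairpin of 16 bases was searched within the last 120 bases of each annotated transcript, on the sense strand, as GGCNCT followed by a 4-base loop TTTN and the reverse complement of the first 6 bases. It was found in 21 of the 13437 protein-coding genes with a transcript (0.156%), and all 21 belonged to the 62 histone genes. No gene called higher in YTHDF3 held it, and 15 of the 356 higher in YTHDF2 did. Because only these histones held it, both counts restate the histone calls and add no support to them. The 21 genes with the hairpin had a median log2 difference of 3.45 and the other 41 histone genes one of 2.95, and the annotation of many of the latter may stop before the stem-loop, which was not tested. Examples of an H3, an H4, an H2A and an H2B mRNA are shown with 5 bases on either side, as GRCm38 DNA in the sense of the mRNA, with the hairpin in capitals.
H3c2 (gene at chr13:23752267-23752886, plus strand): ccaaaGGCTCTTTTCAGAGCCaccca
H4c6: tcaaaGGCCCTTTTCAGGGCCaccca
H2ac4: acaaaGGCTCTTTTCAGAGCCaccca
H2bc3: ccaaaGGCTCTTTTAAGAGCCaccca
The log2 differences of these 4 genes were 4.43 for H3c2, 3.64 for H4c6, 3.83 for H2ac4 and 3.45 for H2bc3, all past the test with adjusted p-values of 0.0268, 0.0174, 0.0467 and 0.0441.

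Components of the ribosome and of the respiratory chain, encoded by short and abundant mRNAs, were also higher in YTHDF2. Of 80 cytosolic ribosomal protein genes, 22 (27.5%, beside 3.95% of all genes) rose in YTHDF2 and none fell, with a median log2 difference of 1.34. For 76, every YTHDF2 library was above every YTHDF3 library, beside 21.8% of all genes tested. Fau, which encodes a ubiquitin-like protein fused to ribosomal protein S30, had 29.2, 50.9 and 31.8 CPM in YTHDF2 and 8.59, 6.18 and 8.93 CPM in YTHDF3 (log2 difference 2.24 ± 0.60 SE, adjusted p = 0.0445). Rpl23a had 99.1, 119 and 64.9 CPM against 21.7, 13.4 and 19.4 CPM (log2 difference 2.38), and Rpl38 had a log2 difference of 2.28, both encoding proteins of the large subunit. All 80 genes were depleted against input in YTHDF3 and 63 were depleted in YTHDF2, with median log2 values of -3.43 and -2.01, so the YTHDF2 RIPs retained more of these mRNAs while still holding less than the input. Leaving out 1 library at a time left 0 to 3 of the 22 calls, 0 without YTHDF3 replicate 2, and the replicate block, in which the replicate number is a term of the model, left 8. DESeq2 called 44.

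Of 81 nuclear-encoded subunits of the respiratory chain and ATP synthase, 29 (35.8%, beside 3.95% of all genes) rose in YTHDF2 and none fell. The median log2 difference was 1.098, and all 81 had a value above 0. Ndufa1, a subunit of complex I, had 3.99, 3.43 and 2.01 CPM in YTHDF2 and 0.544, 0.666 and 0.298 CPM in YTHDF3 (log2 difference 2.63 ± 0.40 SE, adjusted p = 0.00587). The complex I subunit Ndufa5 had 16.4, 24.5 and 10.8 CPM against 3.54, 3.22 and 3.04 CPM (log2 difference 2.39), and the ATP synthase subunit Atp5k had a log2 difference of 2.44. The groups did not overlap for any of these 3 genes. As with the ribosomal proteins, most members were depleted against input in both RIPs, 66 in YTHDF2 and 79 in YTHDF3. With 1 library left out, the number called was 21 without YTHDF3 replicate 1, 17 without YTHDF2 replicate 3, 16 without YTHDF2 replicate 1 or YTHDF2 replicate 2, 10 without YTHDF3 replicate 3 and 9 without YTHDF3 replicate 2.

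Smaller machines had fewer calls, to be read against the 3.95% of all genes called higher in YTHDF2. Of 35 proteasome subunits, 6 (17.1%) rose in YTHDF2, led by Psmb7, a catalytic-ring subunit with 34.2, 38.5 and 33.9 CPM in YTHDF2 and 10.8, 7.85 and 8.43 CPM in YTHDF3 (log2 difference 1.97 ± 0.22 SE, adjusted p = 0.00159). Psmb4, Psmd14 and Psmb5 had log2 differences of 1.70, 1.27 and 1.27. Of 78 mitochondrial ribosomal protein genes, 4 (5.13%) rose (Mrpl20, Mrpl14, Mrpl51 and Mrpl2, with log2 differences of 1.76, 1.26, 1.09 and 1.02), and the list's median was 0.46. Of 45 core splicing proteins, 5 (11.1%) rose, among them Snrpf and Snrpd2, proteins of the Sm ring, and Lsm4 and Lsm8 of the related Lsm ring, with log2 differences of 1.84, 1.67, 1.67 and 1.33. Of 67 translation factors 2 (2.99%) rose, Eif5a, the hypusine-bearing elongation factor, and Eef1akmt2, a methyltransferase acting on elongation factor 1A, with log2 differences of 1.405 and 1.27. Of 20 actin and small cytoskeletal proteins 2 rose, Myl6, a myosin light chain, and Pfn2, a profilin that binds actin monomers, with log2 differences of 1.55 and 1.14. The shares of mitochondrial ribosomal proteins and translation factors lay near the share of all genes. No member of these 5 lists was called higher in YTHDF3. Every YTHDF3 library was above every YTHDF2 library for 12 translation factors and 4 splicing proteins, and the reverse held for 23 and 19. Of all genes tested, 14.0% and 21.8% had such non-overlap in those directions. With 1 library left out, the number called fell as low as 2 for the proteasome (without YTHDF2 replicate 2, YTHDF3 replicate 1 or YTHDF3 replicate 2), 0 for mitochondrial ribosomal proteins (without YTHDF3 replicate 2 or YTHDF3 replicate 3), 0 for splicing proteins (without YTHDF2 replicate 2, YTHDF3 replicate 2 or YTHDF3 replicate 3), 0 for translation factors (without YTHDF3 replicate 2) and 0 for the actin list (without YTHDF2 replicate 1). The replicate block on 6 libraries left 2, 0, 0, 0 and 1.

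**Figure D3:**
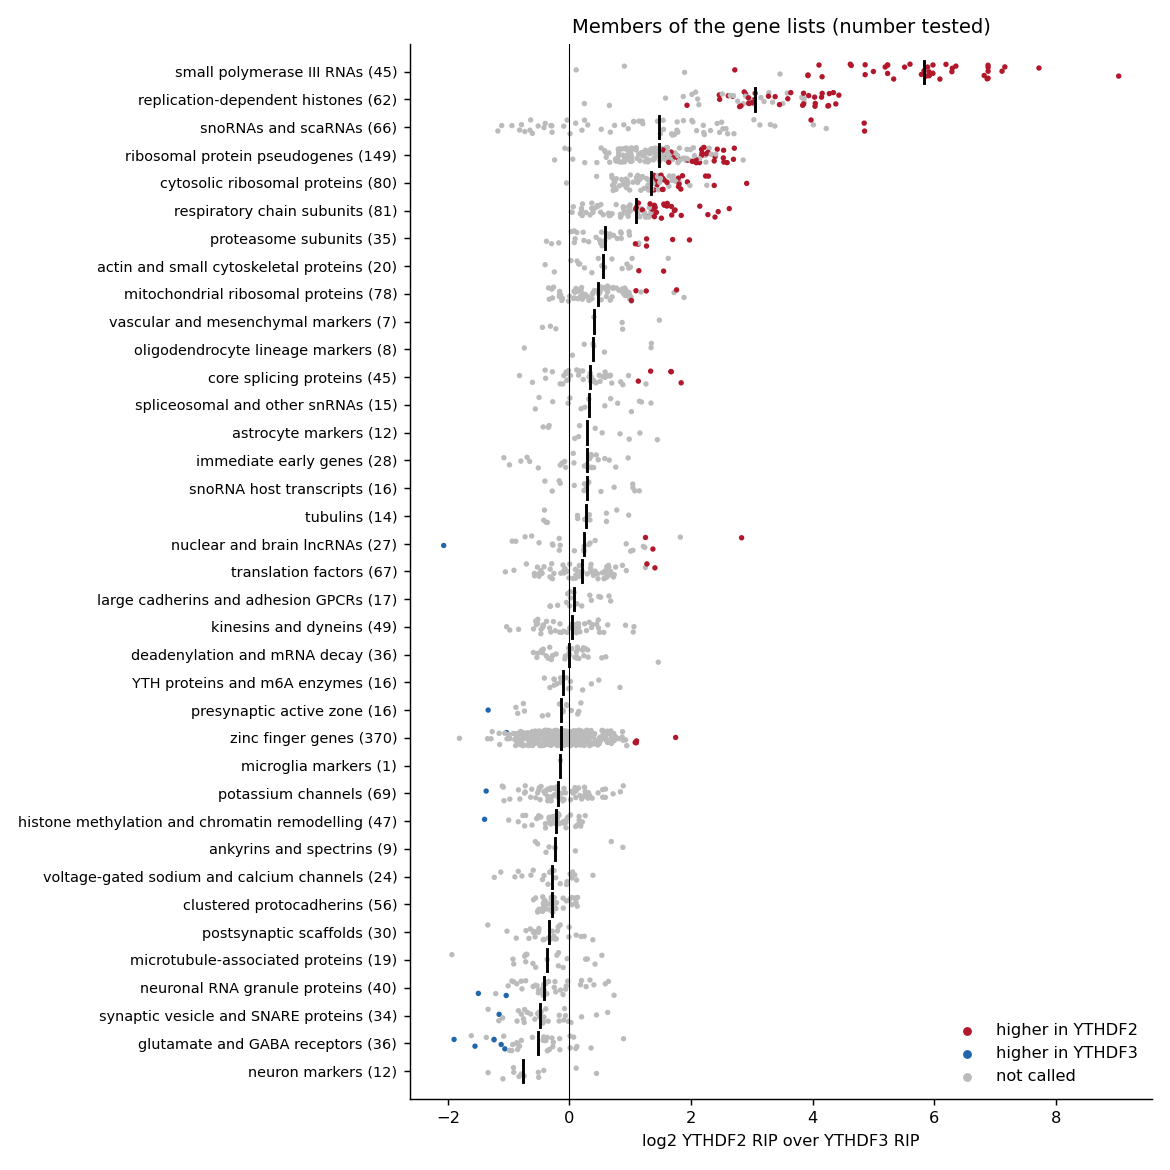
Log2 difference between YTHDF2 RIP and YTHDF3 RIP (horizontal axis) for each tested member of the 37 gene lists, ordered by list median (black bar), with the number tested in brackets; red, blue and grey points are genes higher in YTHDF2, higher in YTHDF3 and not called. Histones lie around a median of 3.05 and glutamate and GABA receptors around -0.52; 7 of the polymerase III genes had no count in YTHDF3, so their fitted positions are not measured folds.

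Some mRNAs were both higher in YTHDF2 than in YTHDF3 and enriched over input in YTHDF2. The genes named in this paragraph, other than Eln and the zinc finger genes, were chosen after their values were seen, as those with the highest level over input. Eln, which encodes the extracellular matrix protein elastin, had 77.8, 129 and 150 CPM in YTHDF2, 3.62, 6.66 and 7.18 CPM in YTHDF3 and 3.50, 7.10 and 9.21 CPM in the inputs. The YTHDF2 libraries were thus far above both other groups for Eln (log2 difference to YTHDF3 4.35 ± 0.43 SE, adjusted p = 0.00142, and log2 value over input 4.18 ± 0.43 SE, adjusted p = 0.000217), while YTHDF3 stayed near input (log2 value -0.17, adjusted p = 0.756). Usp35, a deubiquitinase, had 88.1, 122 and 118 CPM in YTHDF2 against 16.8, 20.2 and 26.8 CPM in YTHDF3, with log2 values over input of 3.03 and 0.67. Hnrnpm, an RNA-binding protein of the hnRNP family, had 454, 623 and 373 CPM against 89.0, 112 and 145 CPM, with log2 values over input of 2.58 and 0.51. Snrnp70, a protein of the U1 snRNP, had log2 values over input of 2.02 in YTHDF2 and 0.78 in YTHDF3, and Snrnp48, of the minor spliceosome, 2.47 and 0.43. Of 370 zinc finger genes, 4 (1.08%) rose in YTHDF2 and 1 fell, a smaller share than the 3.95% of all genes. None was called higher in YTHDF2 without YTHDF2 replicate 2 or YTHDF3 replicate 2, and library size alone gave 1 higher in YTHDF2 and 24 higher in YTHDF3. The 4 were Zfp369, Zfp212, Zfp932 and Zfp692, with log2 differences of 1.75, 1.102, 1.098 and 1.08 and log2 values over input in YTHDF2 of 1.85, 1.21, 1.28 and 1.95.

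Lars2, the mitochondrial leucyl-tRNA synthetase (chr9:123366927-123462666), had the largest difference among the protein-coding genes that met the naming rule, with 3210, 4582 and 6078 CPM in YTHDF2 and 74.2, 28.9 and 42.4 CPM in YTHDF3 (log2 difference 6.57 ± 0.70 SE, adjusted p = 0.00159). Its inputs, at 2236, 2203 and 1508 CPM, lay close to YTHDF2 and far above YTHDF3, the same order as in the 6 short genes above. Which part of the gene the reads came from cannot be told from counts per gene.

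The mRNAs higher in YTHDF3 differed by smaller amounts and included genes of inhibitory synapses. Of 36 glutamate and GABA receptor subunits, 5 (13.9%, beside 1.16% of all genes) were higher in YTHDF3 and none was higher in YTHDF2, with a median log2 difference of -0.52. Gabrb2, Gabra2 and Gabra5 encode subunits of the GABA-A receptor, the chloride channel of fast inhibition, and Grik3 encodes a kainate receptor subunit. Gabrb2 had 86.0, 57.7 and 25.9 CPM in YTHDF3 and 17.3, 9.56 and 18.5 CPM in YTHDF2 (log2 difference -1.90 ± 0.49 SE, adjusted p = 0.0379), and Gabra2 had 462, 349 and 370 CPM against 132, 161 and 110 CPM (log2 difference -1.55 ± 0.37 SE, adjusted p = 0.0305). The YTHDF3 libraries were all above the YTHDF2 libraries for both genes. Gabra5 and Grik3 had log2 differences of -1.12 and -1.06. Levels of Gabrb2 in YTHDF3 were close to input (log2 value -0.01) and those in YTHDF2 were below it (-1.91, adjusted p = 0.011). Between 0 and 3 of the 5 calls were made when 1 library was left out, 0 without YTHDF2 replicate 2, YTHDF3 replicate 1 or YTHDF3 replicate 2, and the replicate block left 2 with 12 libraries and 1 with 6. Neuron markers summed to 4143 to 8330 CPM in YTHDF3 and 2677 to 4742 CPM in YTHDF2, ranges that overlap, and their part in this result was not tested.

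Genes for RNA-binding, chromatin and presynaptic proteins were called on the YTHDF3 side singly or in pairs, and at such counts the lists cannot be set apart from the 1.16% of all genes. Of 40 RNA granule proteins, Pum2, a Pumilio repressor that binds 3′UTRs, and Nova2, a neuronal splicing regulator, fell in YTHDF2 relative to YTHDF3. Pum2 had 319, 279 and 268 CPM in YTHDF3 and 106, 85.4 and 115 CPM in YTHDF2 (log2 difference -1.50 ± 0.19 SE, adjusted p = 0.00255), and it was enriched over input in YTHDF3 (log2 value 1.01, adjusted p = 0.0014) and not called in YTHDF2 (-0.48). Nova2 had a log2 difference of -1.04. Of 47 genes of histone methylation and chromatin remodelling, Kmt2e, a SET-domain protein, had 348, 313 and 286 CPM in YTHDF3 and 116, 125 and 119 CPM in YTHDF2 (log2 difference -1.40 ± 0.18 SE, adjusted p = 0.00281), with a log2 value over input of 1.21 in YTHDF3 and -0.19 in YTHDF2. Syt11, a synaptotagmin, was the 1 called member of 34 vesicle and SNARE proteins (log2 difference -1.16), Erc2, an active-zone scaffold, the 1 of 16 active-zone proteins (-1.34), and Kcna3, a voltage-gated potassium channel, the 1 of 69 potassium channels (-1.37). No potassium channel was called with the replicate block on 12 or on 6 libraries, or without any library other than YTHDF3 replicate 3. The zinc finger gene higher in YTHDF3 was Zfp267 (-1.03), named here after its value was seen.

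By size of the difference, the leading mRNAs of YTHDF3 were Samd12, Lypd6, Rgs7bp, Pcyt1b, Gabrb2, Ids, Tox2 and Fut9. Rgs7bp, which anchors a regulator of G protein signalling to the membrane, had 187, 124 and 66.1 CPM in YTHDF3 and 29.0, 20.3 and 40.2 CPM in YTHDF2 (log2 difference -2.07 ± 0.44 SE, adjusted p = 0.0195). Pcyt1b, an enzyme of phosphatidylcholine synthesis, had 129, 95.4 and 82.8 CPM against 23.9, 32.1 and 23.7 CPM (log2 difference -1.95 ± 0.24 SE, adjusted p = 0.00205). Ids, the lysosomal iduronate sulfatase, had 240, 192 and 154 CPM against 52.4, 47.2 and 64.8 CPM (log2 difference -1.83). Samd12 and Lypd6 had log2 differences of -2.14 and -2.09, and Tox2, an HMG-box protein, and Fut9, a fucosyltransferase, of -1.79 and -1.74. Of these 8, Tox2 was enriched over input in YTHDF3 (log2 value 1.09, adjusted p = 0.018), while the other 7 lay near input in YTHDF3 (log2 values from -0.18 to 0.43, none past the test). All of the 8 except Tox2 were depleted in YTHDF2.

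Other mRNAs were enriched over input in YTHDF3 and not in YTHDF2, and those named here were chosen after their values were seen, by their level over input. Rev3l, the catalytic subunit of DNA polymerase zeta, had 570, 513 and 478 CPM in YTHDF3, 274, 225 and 278 CPM in YTHDF2 and 209, 203 and 168 CPM in the inputs, with log2 values over input of 1.43 and 0.42. Dgkk, a diacylglycerol kinase, had log2 values over input of 1.54 in YTHDF3 and -0.05 in YTHDF2. Ankrd12, an ankyrin-repeat protein, had 404, 310 and 312 CPM in YTHDF3 against 137, 132 and 138 CPM in YTHDF2, and Ttbk2, a tau tubulin kinase, had 293, 245 and 190 CPM against 107, 76.4 and 122 CPM. For each of these 4 genes the lowest YTHDF3 library was above the highest YTHDF2 library.

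**Figure D4:**
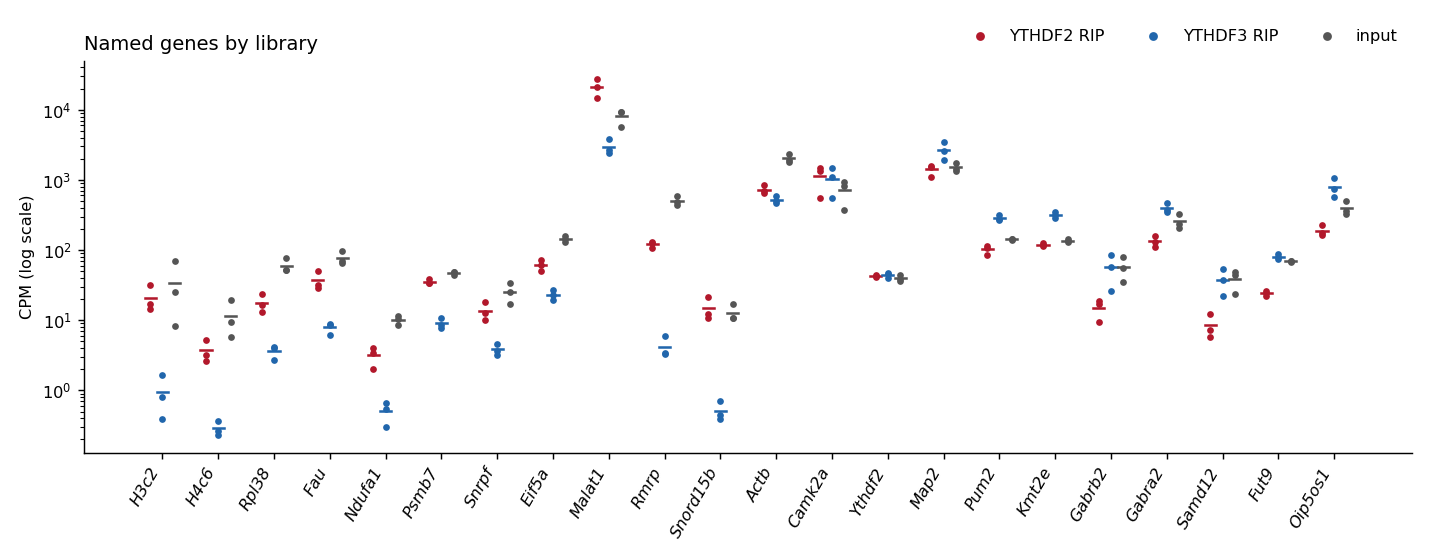
CPM (log scale) of named genes in each YTHDF2 RIP, YTHDF3 RIP and input library; points are libraries and lines are means of 3. H3c2 spans 14.2 to 31.8 CPM in YTHDF2 and 0.389 to 1.65 CPM in YTHDF3, Ythdf2 has overlapping levels in YTHDF2 and YTHDF3, and Pum2 and Kmt2e are higher in YTHDF3 than in the other groups.

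Protein-coding genes on the 2 sides differed in length, 3′UTR and base composition. Median exonic length was 2108 bases for genes higher in YTHDF2, 6082 bases for genes higher in YTHDF3 and 4696 bases for genes not called. Transcript features were read from the longest protein-coding transcript of each gene in the GENCODE basic set. Its 3′UTR had a median of 307 bases in the first group, 2813 bases in the second and 1222 bases in genes not called. The coding sequence had medians of 630, 1230 and 1440 bases. GC content of the transcript had medians of 53.8%, 44.9% and 50.1%. The differences were not carried by the histones, since without them the 321 remaining genes higher in YTHDF2 had a median exonic length of 2370 bases and a median 3′UTR of 345 bases. In the genes that were also enriched over input the order was the same, with median 3′UTRs of 488 bases for the 102 of YTHDF2 and 3301 bases for the 57 of YTHDF3. The pentamer GGACT, the most common sequence around m6A, was searched on the sense strand and occurred at a median of 1.06 per kb of transcript in genes higher in YTHDF2, 0.852 per kb in genes higher in YTHDF3 and 1.04 per kb in genes not called. Per transcript, the median number of occurrences was 1 in genes higher in YTHDF2, 4 in genes higher in YTHDF3 and 4 in genes not called. The order of the 2 sides thus depended on whether length was divided out.

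The relation ran through all protein-coding genes. When genes were ranked by 3′UTR length, the median log2 difference went from 0.44 in the decile with the shortest 3′UTRs (up to 196 bases) to -0.31 in the decile with the longest (at least 3804 bases). The shortest decile held 135 genes higher in YTHDF2 and 3 higher in YTHDF3, and the longest held 7 and 52. By exonic length the medians went from 0.52 to -0.24, with 162 and 6 calls in the shortest decile and 4 and 30 in the longest. By GC content they went from -0.26 in the lowest decile to 0.26 in the highest. Spearman's rho across genes was -0.40 for 3′UTR length, -0.35 for exonic length, -0.22 for coding length and 0.32 for GC content, each a description over genes that share the same 6 libraries and not a test. These features move together, and their separate parts were not tested. With the length trend of each library removed, 237 protein-coding genes were higher in YTHDF2 and 204 were higher in YTHDF3.

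**Figure D5:**
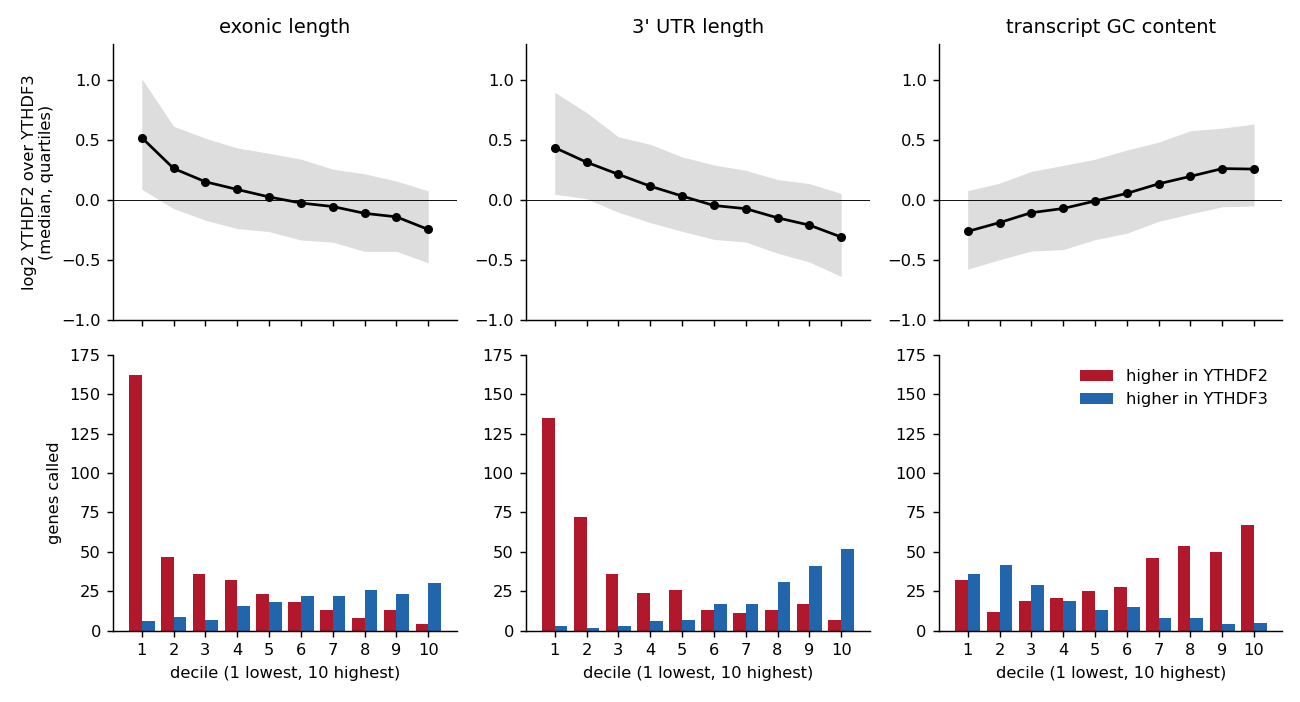
Median log2 difference between YTHDF2 RIP and YTHDF3 RIP with quartiles (top) and number of genes called (bottom) in deciles of the protein-coding genes ranked by exonic length, 3′UTR length and transcript GC content. The median falls from 0.44 to -0.31 along 3′UTR length, and genes higher in YTHDF2 concentrate in the decile with the shortest exonic length (162 genes).

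Among lncRNAs, calls were made on both sides, 34 (3.94%) in YTHDF2 and 11 (1.28%) in YTHDF3 of 862 tested, close to the 3.95% and 1.16% of all genes. Malat1, an abundant nuclear lncRNA, had 21069, 14590 and 27541 CPM in YTHDF2 and 3804, 2631 and 2456 CPM in YTHDF3 (log2 difference 2.83 ± 0.51 SE, adjusted p = 0.0108). Its inputs, at 9379, 9362 and 5746 CPM, lay between the RIPs, and it was enriched over input in YTHDF2 (log2 value 1.37, adjusted p = 0.049) and depleted in YTHDF3 (-1.46, adjusted p = 0.033). Firre, another nuclear lncRNA, and Peg13, an imprinted transcript, had log2 differences of 1.37 and 1.2498, and Peg13 was enriched over input in both RIPs, with log2 values of 2.79 in YTHDF2 and 1.54 in YTHDF3. In the other direction, Oip5os1, also known as Cyrano, had 1062, 752 and 572 CPM in YTHDF3 and 231, 176 and 162 CPM in YTHDF2 (log2 difference -2.07 ± 0.34 SE, adjusted p = 0.00785). Oip5os1 was above input in YTHDF3 (log2 value 1.00, adjusted p = 0.033) and below it in YTHDF2 (-1.07, adjusted p = 0.028), the mirror of Malat1. These 4 were the called members of a list of 27 tested lncRNAs, of which 0 to 2 were called higher in YTHDF2 with 1 library left out, 0 without YTHDF3 replicate 2. AI504432 and AC156546.1 were also higher in YTHDF3, with log2 differences of -1.64 and -1.09.

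Among the gene lists, small RNAs transcribed by RNA polymerase III had the largest median difference, from very different starting levels. Of the 45 tested, out of 193 listed, 41 were higher in YTHDF2 and none was lower, beside 3.95% of all genes. They included 34 copies of the 5S ribosomal RNA, all of them called, whose reads cannot be assigned to 1 copy. At 7 of the 45 genes the YTHDF3 libraries held no count at all, and the median log2 difference of the other 38 was 5.42. All 45 lay below input in YTHDF2, 11 of them past the test, and all 45 were depleted in YTHDF3. Rn7sk, the 7SK RNA that holds back a transcription elongation factor, had 242, 715 and 747 CPM in YTHDF2, 34.4, 25.8 and 35.5 CPM in YTHDF3 and 4618, 5292 and 7353 CPM in the inputs. Rmrp, the RNA of the RNase MRP particle, had 109, 128 and 129 CPM in YTHDF2 and 5.91, 3.29 and 3.37 CPM in YTHDF3 (log2 difference 4.86 ± 0.77 SE, adjusted p = 0.0068), against 440, 587 and 485 CPM in the inputs. Rmrp is listed under 2 overlapping gene identifiers, a ribozyme and a lncRNA, with the same counts. Rn7s6, a copy of the 7SL RNA of the signal recognition particle, had 205, 131 and 438 CPM against 20.8, 8.59 and 15.7 CPM (log2 difference 4.10). For these 3 RNAs the order was the same, with the inputs highest and YTHDF3 lowest. Bc1, a cytoplasmic neuronal RNA, and the Y RNAs Rny1 and Rny3 were not called, with log2 differences of 0.11, 1.89 and 0.90. YTHDF2 replicate 3 weighed on this group, since 11 genes were called without it, and other libraries did too, with 18 called without YTHDF2 replicate 2, 13 without YTHDF3 replicate 1, 10 without YTHDF3 replicate 3 and 5 without YTHDF3 replicate 2. The replicate block gave 29 with 12 libraries and 13 with 6.

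Of 66 small nucleolar and Cajal body RNAs (snoRNAs and scaRNAs), which guide modification of other RNAs, 3 (4.55%) were called higher in YTHDF2. That share lay near the 3.95% of all genes, and the list median was 1.47. None was called when any 1 of the 6 libraries was left out, and with the length trend of each library removed the median was 0.48 and 3 were higher in each RIP. A further 19 genes with no biotype in the deposited annotation are snoRNAs in GENCODE, of which 6 were higher in YTHDF2. Snord15b, a C/D box snoRNA, had 10.6, 12.4 and 21.7 CPM in YTHDF2 and 0.700, 0.444 and 0.397 CPM in YTHDF3 (log2 difference 4.85 ± 1.19 SE, adjusted p = 0.0318), with 10.7, 16.8 and 10.7 CPM in the inputs. Snord15a and Gm23442 had log2 differences of 4.84 and 3.97. None of the 15 snRNAs was called in either direction at these thresholds in edgeR, none passed at an unadjusted p of 0.05 either, and their median was 0.32. Of 149 ribosomal protein pseudogenes, 28 (18.8%, beside 3.95% of all genes) were higher in YTHDF2, with a median of 1.47 beside 1.34 for the ribosomal protein genes themselves. Pseudogenes such as Rpl38-ps2, Rpl31-ps10, Rpl28-ps3 and Rpl38-ps1, with log2 differences of 2.71, 2.696, 2.59 and 2.54, resemble their parent mRNAs closely, and reads from the parents can have been counted at them. Without YTHDF3 replicate 2 none of the 28 calls was made, and 1 to 4 pseudogenes of the list were called without any other library.

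Of 110 genes with the biotype miRNA, 6 (5.45%) were higher in YTHDF2 and 1 (0.909%) was higher in YTHDF3, beside 3.95% and 1.16% of all genes. A further 93 genes without a deposited biotype are miRNAs in GENCODE, of which 19 were higher in YTHDF2, the 6 short genes above among them. The libraries measured total RNA over the precursor, so a count at a miRNA gene need not come from the mature miRNA. The mature sequences of those named by the rule are shown with the seed (bases 2 to 8) in capitals, taken from RefSeq on GRCm38.p6, where all 7 genes had an entry.
mmu-miR-6240 (chr5:114851973-114851998, plus strand): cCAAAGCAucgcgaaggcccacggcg
mmu-miR-6236 (chr9:110281353-110281371, plus strand): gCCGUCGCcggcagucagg
mmu-miR-568 (chr16:43640665-43640684, plus strand): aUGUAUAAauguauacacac
The 3 seeds differ from each other. Mir6236 had 695, 912 and 1222 CPM in YTHDF2 and 16.8, 4.70 and 7.84 CPM in YTHDF3 (log2 difference 6.59 ± 0.83 SE, adjusted p = 0.00238), with inputs of 290, 338 and 250 CPM. Mir6240 had 17.4, 28.1 and 36.7 CPM against 0.233, 0.037 and 0.0992 CPM (log2 difference 7.73), and it was enriched over input in YTHDF2 (log2 value 2.08, adjusted p = 0.012). Both had inputs between the RIPs, as the 6 short genes did. Mir568, the A- and U-rich sequence of the 3, had 21.7, 14.3 and 15.01 CPM in YTHDF3 and 5.05, 6.12 and 5.70 CPM in YTHDF2 (log2 difference -1.60 ± 0.39 SE, adjusted p = 0.0315).

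Most mRNAs followed individually by the study were not called. Camk2a, a synaptic kinase, had 1335, 553 and 1494 CPM in YTHDF2 and 1480, 1096 and 556 CPM in YTHDF3, overlapping ranges with a log2 difference of 0.11 ± 0.51 SE. Its log2 values over input were 0.66 in YTHDF2 and 0.55 in YTHDF3, and neither passed the test. Shank1, a postsynaptic scaffold, had 1104, 987 and 1259 CPM against 1541, 1581 and 1396 CPM (log2 difference -0.43, adjusted p = 0.272), and it was enriched over input in both RIPs with log2 values of 1.22 and 1.65. Map2, a dendritic microtubule-associated protein, had 1597, 1113 and 1520 CPM against 3454, 2585 and 1941 CPM, non-overlapping values whose log2 difference of -0.92 did not pass (adjusted p = 0.0754). Over input, Map2 had log2 values of -0.10 in YTHDF2 (adjusted p = 0.813) and 0.82 in YTHDF3 (adjusted p = 0.0433). Actb, which encodes beta-actin, and Igfbp2, an insulin-like growth factor binding protein, had log2 differences of 0.48 and 1.17 that did not pass. The exception was Eif5a, the non-methylated mRNA that the study used to normalise its RIP quantitative PCR. Eif5a had 50.7, 71.8 and 61.0 CPM in YTHDF2 and 26.9, 19.6 and 22.8 CPM in YTHDF3 (log2 difference 1.405 ± 0.25 SE, adjusted p = 0.00959), and it was depleted against input in both RIPs. The transcripts of Ythdf1, Ythdf2 and Ythdf3 themselves differed by -0.01 ± 0.21 (SE), -0.05 ± 0.15 (SE) and 0.01 ± 0.22 (SE) on the log2 scale, and none of the 16 genes for YTH proteins and m6A enzymes was called in either direction.

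No member was called in either direction for clustered protocadherins (56 tested, median log2 difference -0.29), kinesins and dyneins (49, 0.03), deadenylation and decay factors (36, 0.00), postsynaptic scaffolds (30, -0.33), immediate early genes (28, 0.29), sodium and calcium channels (24, -0.29), microtubule-associated proteins (19, -0.37), large cadherins and adhesion GPCRs (17, 0.08), snoRNA host transcripts (16, 0.28), tubulins (14, 0.27) or ankyrins and spectrins (9, -0.24). Markers of cell types were measured beside them. The 12 neuron markers, among them Rbfox3, Tubb3 and Syn1, were all tested and present in every group, with summed levels of 2677 to 4742 CPM in YTHDF2, 4143 to 8330 CPM in YTHDF3 and 3513 to 5904 CPM in the inputs, and none was called (median -0.77). The 12 astrocyte markers, among them Gfap and Aqp4, summed to 2330 to 3179 CPM, 1392 to 3315 CPM and 1279 to 4119 CPM, and none was called (median 0.29). Of 10 oligodendrocyte lineage markers 8 were tested (median 0.39), of 9 vascular and mesenchymal markers 7 (median 0.40) and of 10 microglia markers 1 (log2 difference -0.16), and none was called. These medians cover groups of unequal libraries, since Pdgfra, a receptor of oligodendrocyte precursors, had 0.894 CPM in YTHDF3 replicate 1 against 177 and 212 CPM in the other YTHDF3 RIPs and 155, 155 and 200.01 CPM in YTHDF2, and Col3a1, a fibrillar collagen, had 1.59 CPM against 66.7 and 28.8 CPM and 85.5, 41.1 and 50.5 CPM. The cultures therefore held neurons and a sizeable astrocyte signal, and the levels of other markers differed between replicates. Oligodendrocyte lineage markers summed to 64.2, 436 and 382 CPM in input replicates 1, 2 and 3.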

How the data were processed

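Libraries of total RNA carried strand information and molecular identifiers. The authors aligned the reads to mm10 with STAR 2.7.7a, removed duplicates with UMI-tools 1.1.1 after cutadapt 3.4, and deposited raw counts of unique fragments, made with featureCounts 2.0.1. Its command, kept in the header, shows that fragments falling in more than 1 gene or aligning to several places were counted at each, so repeats, pseudogenes and gene families are inflated and share reads. Gene biotypes were read from a deposited table of authors' results, whose fold changes and p-values against input were not used. Counts of 55573 genes were filtered at a mean normalized count of 10, leaving 17126, and scaled by TMM. A model of 4 groups was fitted to all 12 libraries with edgeR 4.0.16 in R 4.3.3 (quasi-likelihood F test, Benjamini-Hochberg adjustment over all genes tested), and YTHDF2 was contrasted with YTHDF3 at a fold change of 2 and an adjusted p of 0.05. Against input the log2 threshold was 0.322. SE is the log2 difference divided by the square root of F. 

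The members, lists and tests were chosen with earlier results of these data known. Named genes were 9 followed by the study, the 8 protein-coding and 6 non-coding genes with the largest difference in each direction among those called, with at least 100 normalized counts over the 6 libraries, non-overlapping replicates and a symbol other than Gm or Rik names (4 non-coding genes qualified in YTHDF3), and up to 4 called members of each of 37 lists. Lists with no call are given by count and median. A gene that met this rule is not reported here. The fit was tested on simulated data. P-values measure the spread between the 3 replicates per group. Alternatives are listed in the closing section. Transcript features came from GENCODE M21, mature miRNAs from RefSeq.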

Additional observations from a re-analysis of the deposited data

How the results depend on the processing

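The number of protein-coding genes higher in YTHDF2 was 356 as reported, 219 with library size alone, 161 with the replicate block on 6 libraries, 237 with the length trend removed, 222 with it removed and the replicate block, and 70 to 217 with 1 library left out. The number of protein-coding genes higher in YTHDF3 was 179 as reported, 312 in DESeq2, 643 with library size alone, 694 with no filter on low counts, 383 in the 6 libraries alone, 93 with the replicate block on 6 libraries, and 63 to 140 with 1 library left out. The number of non-coding genes higher in YTHDF2 was 242 as reported, 407 in DESeq2, 380 with no filter, 154 with a minimum mean of 50, 393 in the 6 libraries alone, 151 and 90 with the replicate block on 12 and 6 libraries, 143 with the length trend removed, 103 with it removed and the block, and 26 to 100 with 1 library left out. The number of non-coding genes higher in YTHDF3 was 18 as reported, 36 in DESeq2, 72 with library size alone, 29 with TMM over protein-coding genes, 65 with no filter, 45 in the 6 libraries alone, 11 and 5 with the replicate block on 12 and 6 libraries, 92 with the length trend removed, 53 with it removed and the block, and 5 to 10 with 1 library left out. The lowest counts were those without YTHDF3 replicate 2 for protein-coding genes. The cause of these shifts was not tested. The replicate numbers were not taken to pair the samples: deviations of same-numbered YTHDF2 and YTHDF3 libraries correlated at 0.17, -0.32 and -0.35, and YTHDF2 replicate 2 correlated best with YTHDF3 replicate 3 (0.55), although the lysates are described as shared.

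Of 84 named genes, 4 with a log2 difference near 0 changed sign in 1 or more of 18 alternatives. With library size taken without the 6 short genes, an alternative chosen after seeing the data, Ythdf1 (ENSMUSG00000038848) log2 YTHDF2 over YTHDF3 was at 0.047 and Ythdf2 (ENSMUSG00000040025) log2 YTHDF2 over YTHDF3 at 0.0097. Ythdf3 (ENSMUSG00000047213) log2 YTHDF2 over YTHDF3 was at -0.037 in DESeq2 and with its size factors, -0.24 with library size, -0.056 with TMM over protein-coding genes, -0.22 with no filter, -0.0019 with a minimum of 50, -0.11 in the 6 libraries and -0.10 with the replicate block on them. Camk2a (ENSMUSG00000024617) log2 YTHDF2 over YTHDF3 was at -0.14 with library size, -0.11 with no filter and -0.031 with the replicate block on 6 libraries. With 1 library left out, Ythdf1 ranged from -0.12 to 0.052, Ythdf3 from -0.044 to 0.054 and Camk2a from -0.20 to 0.45. With the 6 short genes out of the total, the difference in protein-coding share (-22.8 points) became -5.10 points and that in lncRNA share (1.601 points) 2.50 points. The lncRNA difference turned to -0.19 points with Malat1 out of the total and the 6 short genes still in it. Both alternatives were chosen after seeing the data. With single libraries left out, with miRNA and misc_RNA genes out of the total or over the genes tested, both differences moved by less than the spread between replicates. Of the 84 named genes, those no longer past the threshold numbered 58 without YTHDF3 replicate 2, 51 without YTHDF2 replicate 2, 44 without YTHDF3 replicate 1, 41 without YTHDF3 replicate 3, 35 without YTHDF2 replicate 1, 32 without YTHDF2 replicate 3, 34 with the replicate block on 6 libraries and 17 on 12. The 84 include Camk2a, Map2, Shank1, Actb, Igfbp2, Ythdf1, Ythdf2 and Ythdf3, which were not called in the reported fit. The share of calls lost is therefore larger than these numbers out of 84. The calls of Mrpl2, Zfp692, Lsm8, Mrpl14 and Snrpd2 held in 3, 4, 5, 6 and 6 of the 18 alternatives. The lower totals of the YTHDF2 libraries limit what can be seen at low-level genes.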
